A study of Mus musculus with 12 samples.

Results

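The 27 genes described here make cholesterol, control its synthesis, or move and store it. They were chosen by name as a list of pathway members, and each matched 1 of the 55416 Ensembl gene identifiers counted in every library. They fall into 4 roles. The acetyl-CoA and mevalonate steps have 7 genes (Acat2, Hmgcs1, Mvk, Pmvk, Mvd, Idi1, Fdps) and the steps from squalene to cholesterol have 11 (Fdft1, Sqle, Lss, Cyp51, Tm7sf2, Msmo1, Nsdhl, Hsd17b7, Ebp, Sc5d, Dhcr7), which together are called the 18 synthesis enzymes. The control of the transcription factor SREBP2 has 4 genes (Srebf2, Scap, Insig1, Insig2), and transport, efflux and esterification have 5 (Stard4, Npc1, Npc2, Abca1, Soat1).

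The series asks which genes depend on Prdm12, a transcriptional regulator of pain-sensing neurons, in the trigeminal ganglion of adult C57Bl6 mice. Polyadenylated RNA of whole ganglia, taken 1 month after injection, was sequenced from 6 inducible knockouts (iKO) and 6 controls. All 6 iKO animals carried Rosa26Cre ERT2, a tamoxifen-activated recombinase made from a broadly active locus rather than in neurons alone, and were Fl/Fl, that is, both Prdm12 alleles were floxed. They received tamoxifen, spelled tamoxyfene in the labels. Control 1 was Rosa26Cre ERT2; Fl/+, controls 2 and 3 were +/+; Fl/+ and so had no Cre, and control 4 was Rosa26Cre ERT2; +/+, all with tamoxifen. Controls 5 and 6 were Rosa26Cre ERT2; Fl/Fl like the knockouts and received corn oil, so among replicates 1 to 4 the groups differ in genotype and among replicates 5 and 6 in the injection. Females were iKO 1 to 3 and controls 1 and 2.

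Cholesterol synthesis starts from acetyl-CoA, runs through mevalonate and squalene, closes the sterol ring at lanosterol and ends with a series of oxidations and reductions. When sterols are scarce in the endoplasmic reticulum, SCAP carries SREBP2 to the Golgi for cleavage, and the freed factor switches on most synthesis genes. When sterols are plentiful, the INSIG proteins hold SCAP back, while liver X receptors, which sense oxysterols, switch on efflux genes such as Abca1. In a sensory ganglion both neurons and myelinating glia make cholesterol, and myelin is rich in it.

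Libraries held 13207526 to 24178970 counts, of which 34170 to 66949 fell on the 27 genes, a share of 0.255% to 0.290%. Prdm12 ran from 57.0 to 133 CPM (the count relative to the library total, with libraries scaled to each other by TMM, a trimmed mean of ratios) in controls and from 13.2 to 19.2 CPM in iKO libraries. Sensory neuron markers were present in both groups, for example Prph at 1282 CPM in controls and 1224 CPM in iKO libraries. All 27 genes passed the filter on low counts, as did 16637 genes in all, and the lowest of the 27, Idi1, had 1016 counts over the 12 libraries. A count of 0 would allow 0.124 to 0.227 CPM, so no value of the 27 genes was near the limit of detection. Without molecular identifiers on the reads, such limits speak for counting error alone.

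The sequences in front of these genes were also read for short motifs. RefSeq promoter windows of 300 bases (250 before the annotated start and 50 after it, build GRCm38.p6) were at hand for 22 of the 27 genes. They were searched on both strands for CCAAT, for GGGCGG (a GC box) and for TCACNCCAC, a form of the sterol regulatory element bound by SREBP proteins. The 4 windows shown are those of the closest pair across libraries (Hmgcs1 and Cyp51), of Insig1 and of Npc2. Insig1 was the gene of SREBP2 control that followed the enzymes most closely. Npc2 was a transport gene that ran against them over all libraries, though not within iKO libraries alone. Capitals mark TCACNCCAC and CCAAT, the latter read as ATTGG where it lies on the opposite strand.
Hmgcs1 (chr13:119690101-119690400, plus strand): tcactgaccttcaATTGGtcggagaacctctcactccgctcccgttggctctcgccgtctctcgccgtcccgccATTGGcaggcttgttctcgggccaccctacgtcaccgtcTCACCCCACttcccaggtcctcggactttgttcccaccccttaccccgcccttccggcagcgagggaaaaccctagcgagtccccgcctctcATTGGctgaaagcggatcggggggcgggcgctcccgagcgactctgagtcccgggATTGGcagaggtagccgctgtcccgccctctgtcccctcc
Cyp51 (chr5:4104648-4104947, minus strand): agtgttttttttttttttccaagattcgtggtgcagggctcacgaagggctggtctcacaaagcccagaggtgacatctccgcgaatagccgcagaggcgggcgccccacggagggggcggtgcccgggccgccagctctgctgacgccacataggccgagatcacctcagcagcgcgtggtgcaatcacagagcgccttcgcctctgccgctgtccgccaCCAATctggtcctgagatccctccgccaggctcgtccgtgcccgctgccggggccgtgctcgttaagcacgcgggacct
Insig1 (chr5:28071162-28071461, plus strand): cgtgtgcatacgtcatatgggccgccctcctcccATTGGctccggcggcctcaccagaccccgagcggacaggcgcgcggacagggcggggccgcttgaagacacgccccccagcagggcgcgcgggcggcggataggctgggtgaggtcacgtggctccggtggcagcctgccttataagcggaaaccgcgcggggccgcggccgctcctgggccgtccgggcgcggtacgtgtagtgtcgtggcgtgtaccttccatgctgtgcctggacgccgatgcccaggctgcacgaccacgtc
Npc2 (chr12:84773063-84773362, minus strand): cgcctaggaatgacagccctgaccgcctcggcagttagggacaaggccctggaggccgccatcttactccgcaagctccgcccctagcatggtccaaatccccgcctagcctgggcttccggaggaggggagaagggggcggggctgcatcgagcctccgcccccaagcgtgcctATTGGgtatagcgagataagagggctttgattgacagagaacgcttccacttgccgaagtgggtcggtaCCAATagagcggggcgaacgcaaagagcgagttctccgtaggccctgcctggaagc

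CCAAT was found in front of 19 of the 22 genes (86.4%), against 42.3% of the 12234 tested genes in the same table. Some genes have several start sites, and a gene counts for a motif if any of its windows holds it. Counted by window, CCAAT was found in 67.9% of the 28 windows of these genes, against 37.4% of the 32851 windows of all genes. Hmgcs1 held it 4 times, with first bases at -237, -176, -45 and 11 from the start site, Cyp51 once at -29, Insig1 once at -216 and Npc2 at -75 and -6. Abca1, Acat2 and Scap had none in their windows. GGGCGG was found in front of 21 of the 22 (95.5%, against 65.1%). TCACNCCAC was found in 1 window, that of Hmgcs1, as TCACCCCAC at -137 (4.55%, against 1.44%). The shorter TCACNCCA, which every TCACNCCAC also holds and which was searched after the longer form, was found for Hmgcs1, Msmo1 and Srebf2 (13.6%, against 4.68%). These are matches of letters in short windows and say nothing of binding.

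Compared per kilobase of annotated exon, Hmgcs1, the cytosolic HMG-CoA synthase, was the most abundant of the 27 at 117 CPM per kb (mean of all 12 libraries). Next came Fdft1, which makes squalene, at 38.0 CPM per kb, Pmvk, a kinase of the mevalonate steps, at 37.3, and Sqle, which oxidises squalene, at 33.4. Sc5d, a sterol desaturase, stood at 30.4 CPM per kb and Srebf2, the gene of SREBP2, at 28.7. The lowest were Idi1, which isomerises the isoprenoid building block, at 1.34 CPM per kb, Fdps, which joins such blocks into farnesyl diphosphate, at 2.57, and Soat1, which esterifies cholesterol for storage, at 4.33. Of Idi1 transcripts' words of 50 bases, 25.3% also occur in transcripts of 5 other genes, and of Fdps words 26.2% occur in 8 others. Acat2 shared 39.1% with Acat3 and Tcp1, and Fdft1 26.5%, mostly with Ctsb, which overlaps it on the opposite strand. Exons of Cyp51 overlap Akap9, those of Npc1 overlap Rmc1, and those of Tm7sf2 overlap Vps51. How reads shared between genes were counted is not given in the sources used here, so the levels of these genes are uncertain. The same holds for their fold changes and correlations below.

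None of the 27 genes passed the test between iKO and control. In edgeR's quasi-likelihood test with sex as a covariate and Benjamini-Hochberg adjustment over 16637 genes, 0 of the 27 passed an adjusted p of 0.05, while 63 genes (0.379%) passed over the whole table. None reached an unadjusted p of 0.05, against 10.9% of all genes tested, and DESeq2 and limma-voom also called 0 of the 27. The log2 fold change was above 0 for 13 of the 27, against 50.5% of all genes, and its median was -0.01, against 0.00 over all genes. No gene of the 27 had 6 iKO values that lay wholly above or below the 6 control values, against 1.20% of all genes tested. In bulk tissue fewer cells of a type and less RNA per cell cannot be told apart. The p-values set the difference between the groups against the spread among these 12 animals that remains after group and sex.

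The data also bound how large a change in the RNA of whole ganglia could have been missed. They do not bound a change within a single cell type. The 95% confidence interval of the fold change lay inside 1.5-fold in either direction (0.58 on the log2 scale) for 27 of the 27 genes, against 78.1% of all genes tested. It lay inside 1.25-fold (0.32) for 23 of the 27, against 56.2%. The exceptions were Mvd, Dhcr7, Fdps and Idi1, whose intervals ran out to -0.41, -0.34, 0.32 and 0.34. The median half-width of the interval was 0.15 for the 27 genes and 0.19 for all genes, on the log2 scale. These comparisons with all genes were not matched for level. Of the 16637 genes tested 15509 averaged 1 CPM or more, while Idi1, the lowest of the 27, averaged 4.71 CPM.

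**Figure D1:**
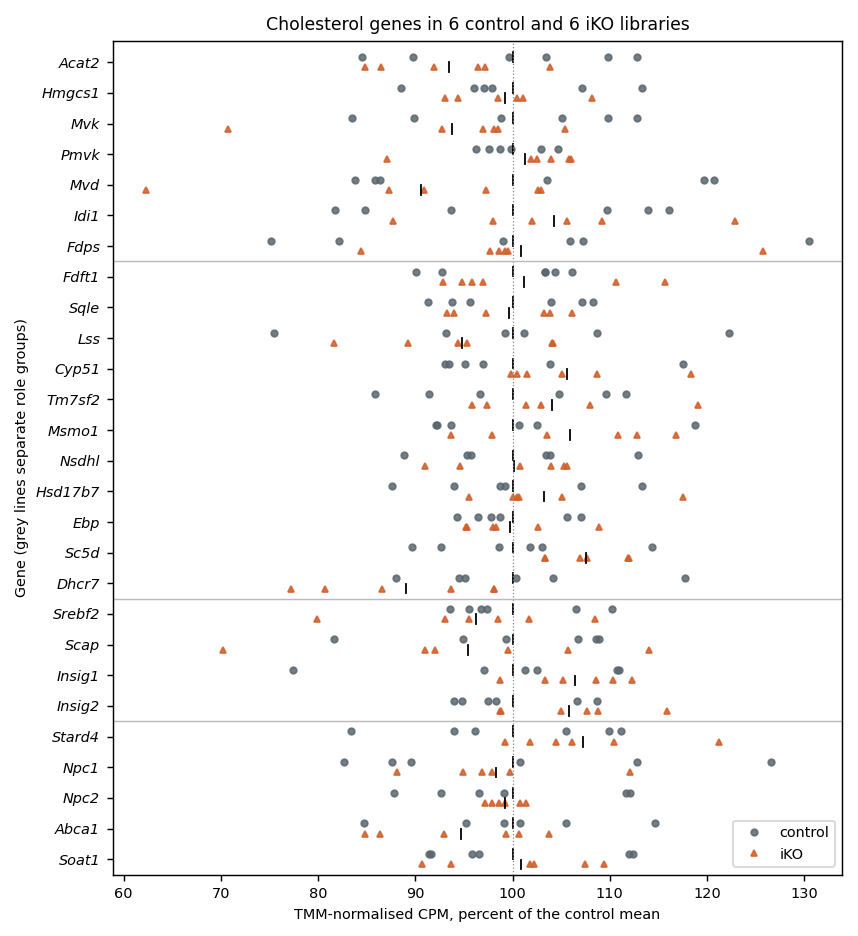
TMM-normalised CPM of each of the 27 genes (rows, in pathway order) in 6 control (circles) and 6 iKO (triangles) libraries, as percent of the gene's control mean, with black ticks at the group means. Values of the groups overlap in every row, and single libraries stand low for Mvk, Pmvk and Mvd.

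Among the acetyl-CoA and mevalonate genes 3 had a log2 fold change above 0 and 4 below, with a median of -0.01 and a range of -0.12 to 0.06. Hmgcs1 ran from 477 to 610 CPM in controls with a median of 525, and from 501 to 582 CPM in iKO libraries with a median of 535. Its means were 538 ± 47.4 and 534 ± 29.1 CPM (SD, n = 6 each). The fold change on the log2 scale was -0.01 ± 0.06 (SE). The iKO values lay within the range of the controls. Acat2, the cytosolic thiolase that joins acetyl-CoA units, ran from 60.3 to 80.6 CPM (median 72.5) in controls and from 60.6 to 74.2 CPM (median 67.3) in iKO libraries. Its log2 fold change was -0.10 ± 0.08 (edgeR, adjusted p = 0.71), with the groups overlapping over most of their range. Mvd, the decarboxylase that yields isopentenyl diphosphate, ran from 30.5 to 44.0 CPM (median 34.6) in controls and from 22.7 to 37.5 CPM (median 34.3) in iKO libraries. Its log2 fold change was -0.12 ± 0.13 (edgeR, adjusted p = 0.78), and the low end came from iKO 2. For the kinases Mvk and Pmvk the fold changes were -0.07 and 0.03, for Idi1 0.06 and for Fdps 0.03, all on the log2 scale.

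Among the squalene to cholesterol genes 6 had a log2 fold change above 0 and 5 below, with a median of 0.02. Dhcr7, the reductase that forms cholesterol in the last step, had the largest difference of the 27 and the smallest p. It ran from 69.6 to 93.1 CPM (median 77.3) in controls and from 61.0 to 77.6 CPM (median 71.2) in iKO libraries. The log2 fold change was -0.16 ± 0.08, with a 95% interval of -0.34 to 0.01 and an adjusted p of 0.50 in edgeR. Of its 6 iKO values 3 lay below the lowest control. Sc5d, which acts just before Dhcr7, had the opposite sign. It ran from 128 to 163 CPM (median 143) in controls and from 147 to 160 CPM (median 153) in iKO libraries, with a difference of 0.10 ± 0.05 on the log2 scale (edgeR, adjusted p = 0.57). All iKO values lay above 5 of the 6 controls and below control 1. Sqle ran at 169 to 201 CPM (median 185) in controls and 173 to 197 CPM (median 186) in iKO libraries, with a log2 fold change of -0.01 ± 0.05. The log2 fold changes of the other 8 ran from -0.08 for Lss, which closes the sterol ring, to 0.08 for Tm7sf2, a sterol reductase. Between them lay Fdft1 at 0.02, the lanosterol demethylase Cyp51 at 0.07 and the methylsterol oxidase Msmo1 at 0.07. The decarboxylating dehydrogenase Nsdhl was at -0.02, the ketosterol reductase Hsd17b7 at 0.04 and the sterol isomerase Ebp at -0.01.

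The 4 genes of SREBP2 control had log2 fold changes of -0.04 to 0.12. Srebf2 ran from 197 to 232 CPM in controls and from 168 to 228 CPM in iKO libraries, with a median of 204 in both and a log2 fold change of -0.04 ± 0.07. Insig1, itself a target of SREBP2, ran from 54.7 to 78.4 CPM (median 72.0) in controls and from 69.7 to 79.4 CPM (median 75.5) in iKO libraries. Its log2 fold change was 0.12 ± 0.07 (edgeR, adjusted p = 0.57), the largest positive value of the 27, and the low end of the controls was 1 library. Insig2, its relative in holding SCAP back, ran from 43.2 to 49.98 CPM (median 45.0) in controls and from 45.4 to 53.3 CPM (median 48.9) in iKO libraries, with a difference of 0.09 ± 0.05 on the log2 scale (edgeR, adjusted p = 0.60). Scap stood at 63.0 ± 6.67 CPM in controls and 60.1 ± 9.50 CPM in iKO libraries.

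Of the 5 transport and storage genes, Abca1, the exporter of cholesterol to lipoproteins, had the smallest p. It ran from 104 to 140 CPM (median 122) in controls and from 104 to 127 CPM (median 117) in iKO libraries. The log2 fold change was -0.11 ± 0.06, with an interval of -0.23 to 0.01 and an adjusted p of 0.51 in edgeR. Stard4, a soluble sterol carrier, ran from 76.2 to 102 CPM (median 92.2) in controls and from 90.7 to 111 CPM (median 96.3) in iKO libraries, with a difference of 0.10 ± 0.08 on the log2 scale (edgeR, adjusted p = 0.70). Npc2, which hands cholesterol to NPC1 inside lysosomes, ran from 114 to 145 CPM (median 127) in controls and from 126 to 132 CPM (median 128) in iKO libraries, a log2 fold change of -0.02 ± 0.06. Npc1, which passes cholesterol out of the lysosome, was at -0.03 and Soat1 at 0.00 on the log2 scale.

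**Figure D2:**
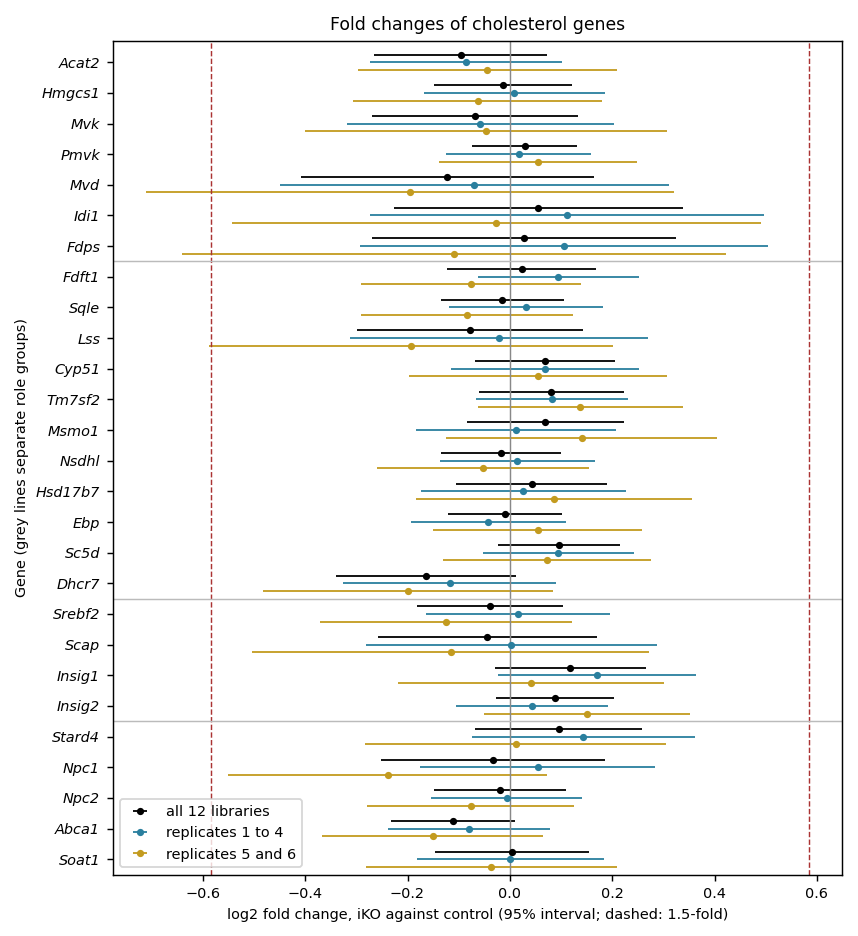
Log2 fold change of iKO against control for each of the 27 genes, with 95% confidence intervals, in all 12 libraries, in replicates 1 to 4 and in replicates 5 and 6; dashed lines mark 1.5-fold. All 27 intervals of the 12-library comparison include 0 and stay inside 1.5-fold, and those of replicates 5 and 6 are the widest.

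The control set mixes Cre-free, floxed and corn-oil animals, so the comparison was repeated within the replicate sets in 1 fit that shares the estimate of spread. In replicates 1 to 4, where all animals received tamoxifen, 0 of the 27 genes passed in edgeR, against 0.114% of all genes. In replicates 5 and 6, where all animals were Rosa26Cre ERT2; Fl/Fl, 0 of the 27 passed, against 0.00601%. None of the 27 reached an unadjusted p of 0.05 in either set, against 7.93% and 7.87% of all genes, and DESeq2 called 0 of the 27 in both. The median log2 fold change of the 27 was 0.02 in replicates 1 to 4 and -0.05 in replicates 5 and 6. In replicates 1 to 4 the smallest p belonged to Insig1, at 0.17 ± 0.09 on the log2 scale (edgeR, adjusted p = 0.70). In replicates 5 and 6 it belonged to Npc1, at -0.24 ± 0.14 on the log2 scale (edgeR, adjusted p = 0.72). The interval stayed inside 1.5-fold for 27 of 27 genes in replicates 1 to 4 and for 24 of 27 in replicates 5 and 6. The difference between the sets was largest for Npc1, at 0.29 with a 95% interval of -0.09 to 0.68 on the log2 scale, and 0 genes of the whole table passed that test in edgeR, with 568 at an unadjusted p under 0.05.

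Sex is partly confounded with the replicate sets, since 4 of the 7 males and 0 of the 5 females belong to replicates 5 and 6. Between males and females, with group as a covariate, 0 of the 27 genes passed in edgeR, against 0.108% of all genes. Abca1 was the 1 gene of the 27 with an unadjusted p under 0.05, against 10.2% of all genes. Its log2 difference was -0.18 ± 0.06 in males against females, with an interval of -0.31 to -0.06 and an adjusted p of 0.44. With terms for both group and replicate set, a fit added after seeing the data in which the sex difference rests on replicates 1 to 4, it was -0.14 ± 0.07 with an interval of -0.30 to 0.03 (edgeR, unadjusted p = 0.091). In that fit Tm7sf2 was the 1 gene of the 27 with an unadjusted p under 0.05, against 2202 of the 16637 genes, at 0.25 ± 0.07 (adjusted p = 0.32). The interaction of sex with the knockout passed for 0 genes of the whole table in edgeR, with 318 at an unadjusted p under 0.05. Of the 27 its smallest p was that of Insig2, whose difference between the sexes in the effect was 0.20 with a 95% interval of -0.01 to 0.42.

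Genes around the pathway were read from lists of other pathway genes. Of 13 genes of fatty acid synthesis, 9 of sterol sensing and SREBP processing, 9 of other branches of the mevalonate pathway, 8 tested of 9 of liver X receptors and oxysterols and 15 of sterol transfer and storage, 0 passed between iKO and control in edgeR. At an unadjusted p of 0.05 there were 4 of these 54, against 10.9% of all genes. They were Scd1, a fatty acid desaturase, at -0.11, Coq2 of ubiquinone synthesis at 0.12, the farnesyltransferase subunit Fntb at -0.14, and the lysosomal lipase Lipa at 0.13 on the log2 scale. In replicates 5 and 6 the fatty acid genes had a median of -0.20, with 6 of 13 at an unadjusted p under 0.05 (Srebf1, Acaca, Scd1, Scd2, Fads1 and Fads2), all lower, against 7.87% of all genes. None of the 13 passed after adjustment there. In replicates 1 to 4 the same 13 genes had a median of 0.00, with 0 at an unadjusted p under 0.05, against 7.93% of all genes. The difference between the sets had an unadjusted p under 0.05 for 2 of the 13 in edgeR, against 3.41% of all genes. None of the 13 passed that test after adjustment. In replicates 5 and 6 skeletal muscle markers had a median of 2.197, with 7 of 8 higher at an unadjusted p under 0.05, and fibroblast and meningeal markers one of -0.57, with 4 of 8 lower. Their part in the values of the fatty acid genes was not tested.

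Most of the synthesis genes varied together from library to library, in both groups. Levels were compared as log2(CPM + 1) after removal of the group and sex means, over 12 libraries, so that differences between those means do not enter. The median Pearson's r over the 351 pairs of the 27 genes was 0.37, and 72.9% of pairs were above 0. Over the pairs of the 18 synthesis enzymes the median r was 0.53, and 91.5% were above 0. Over pairs of all 15509 genes that averaged 1 CPM or more the median was 0.00 and 49.7% were above 0. These medians describe pairs that share the same 12 libraries and their depth. The medians of the 27 genes and of the 18 enzymes were 0.55 and 0.67 within the 6 controls, 0.34 and 0.47 within the 6 iKO libraries, and 0.41 and 0.56 within replicates 1 to 4. Replicates 5 and 6 hold 4 libraries, too few for a value of their own.

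**Figure D3:**
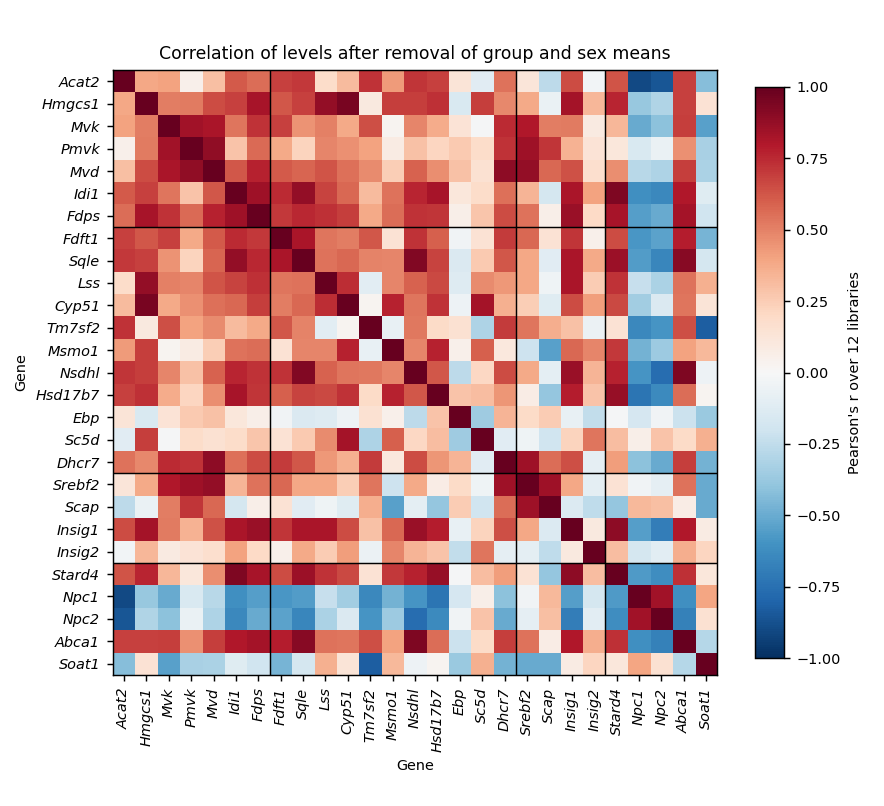
Pearson's r between each pair of the 27 genes over 12 libraries, after removal of group and sex means, with genes in pathway order and lines between the 4 roles. Red blocks cover most pairs of synthesis enzymes together with Insig1, Stard4 and Abca1, while the rows of Npc1 and Npc2 are mostly blue.

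Of the 351 pairs, 66 had an adjusted p of r under 0.05 (two-sided permutation test with 100000 resamples, Benjamini-Hochberg over the 351), of which 61 were positive and 5 negative, and 50 passed by Spearman's rho. The permutation treats the 12 residuals as exchangeable although group and sex means were taken from them. The closest pair was Hmgcs1 and Cyp51, from an early and a late step of the pathway, with r = 0.95 and rho = 0.92 (permutation, adjusted p = 0.00117 and 0.00451). Without the 2 libraries farthest from the median of Hmgcs1 it was 0.92. Hmgcs1 spanned 477 to 610 CPM and Cyp51 110 to 140 CPM, and both were highest in control 1 and iKO 1. Sqle and Nsdhl had r = 0.93 and rho = 0.92 (permutation, adjusted p = 0.00140 and 0.00451), and r = 0.90 without the 2 farthest libraries. Idi1 and Stard4 had r = 0.93 and rho = 0.97 (permutation, adjusted p = 0.00140 and 0.00351), and r = 0.91 without the 2 farthest.

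Abca1, the exporter, moved with the synthesis enzymes. With Nsdhl it had r = 0.94 and rho = 0.94, and with Sqle r = 0.91 and rho = 0.92 (permutation, adjusted p = 0.00117 for each r and 0.00451 for each rho). Without the 2 farthest libraries these values were 0.89 and 0.87. The smallest p that the resamples can give is 1e-05 before adjustment, which the r of Hmgcs1 with Cyp51 and those of Abca1 with Nsdhl and with Sqle reached.

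The 5 lowest pairs set the lysosomal genes Npc1 and Npc2, or Soat1, against an enzyme. Of these genes Acat2, Npc1 and Tm7sf2 are among those named above that share sequence or exons with other genes. Acat2 and Npc1 had r = -0.90 and rho = -0.83 (permutation, adjusted p = 0.00401 and 0.0225), and r = -0.82 without the 2 farthest libraries. In CPM, Acat2 was lowest in control 6, iKO 3, iKO 6 and control 2, and Npc1 was highest in control 6, control 2 and iKO 3. Acat2 and Npc2 had r = -0.86 and rho = -0.87 (permutation, adjusted p = 0.00636 and 0.0156), which was -0.99 within controls and -0.41 within iKO libraries. Tm7sf2 and Soat1 had r = -0.82 (permutation, adjusted p = 0.00877), with rho = -0.80. Hsd17b7 and Npc1 had r = -0.73 (permutation, adjusted p = 0.0438), with rho = -0.80. Nsdhl and Npc2 had r = -0.76, but its rho of -0.66 did not pass (permutation, adjusted p = 0.0955), and r fell to -0.43 without the 2 farthest libraries, so that it rests on those.

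**Figure D4:**
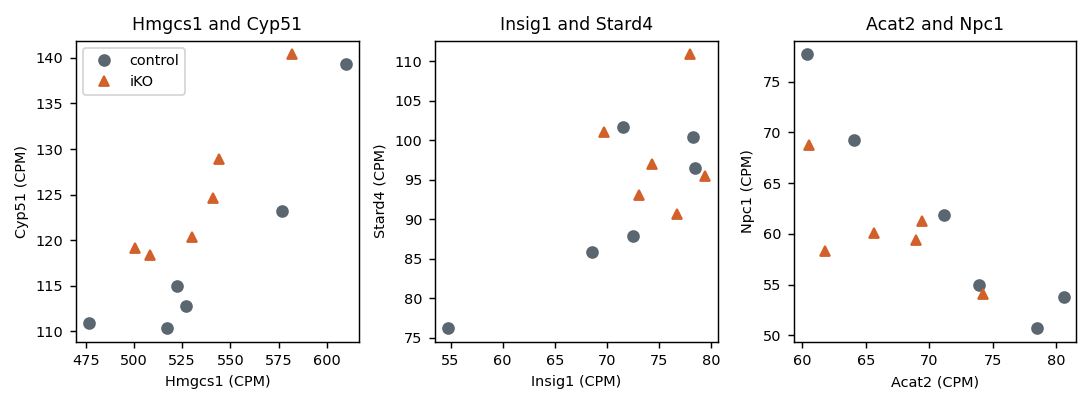
CPM of Cyp51 against Hmgcs1, of Stard4 against Insig1 and of Npc1 against Acat2, each point 1 library (circles control, triangles iKO). The first pair rises together in both groups, the second rests partly on the lowest control, and the third runs downward.

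Each gene's mean r with the synthesis enzymes orders the members. It was highest for Fdps (0.62), Hmgcs1 (0.585), Idi1 (0.57), Mvd (0.56) and Sqle (0.56), and lowest among the enzymes for Tm7sf2 (0.31), Sc5d (0.20) and Ebp (0.04). Single enzymes stood apart in 1 group. Within controls and within iKO libraries the mean r was 0.65 and 0.05 for Msmo1, 0.73 and 0.23 for Nsdhl, and -0.25 and 0.39 for Ebp. Among the genes that are no enzymes it was 0.61 for Insig1, 0.60 for Abca1 and 0.56 for Stard4. Of 15482 other genes, 0.0581%, 0.123% and 0.523% had a higher mean r than these, and the median of those genes was 0.02. Srebf2 had 0.41, below 6.38% of other genes. Insig2 had 0.20, which was 0.64 within controls and -0.43 within iKO libraries, and the difference was not tested. Scap had 0.07, Soat1 -0.16, Npc2 -0.41 and Npc1 -0.45. Npc1 was negative in both groups, at -0.50 within controls and -0.43 within iKO libraries. Npc2 was at -0.58 within controls and 0.08 within iKO libraries. For Soat1 these values were 0.08 and -0.64, and for Scap -0.25 and 0.345. The differences between the groups were not tested. The pair Insig1 and Stard4, chosen for the plot after its values were seen, had r = 0.89 (permutation, adjusted p = 0.00608), with 0.99 within controls and 0.45 within iKO libraries.

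The sizes of these swings were small. The standard deviation of a gene over libraries, after removal of group and sex, had a median of 0.12 on the log2 scale for the 27 genes, and 0.12 for the 12077 genes with means in the same range. It was smallest for Ebp (0.07) and Pmvk (0.08) and largest for Mvd (0.26) and Fdps (0.23).

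The libraries themselves show the pattern. In iKO 1 the level of 18 of the 18 enzymes lay above the gene's mean over the 12 libraries, in control 1 of 15, in control 2 of 2 and in control 6 of 1. The mean centred log2 level of the 18 enzymes was highest in iKO 1 (0.13), control 1 (0.11) and control 5 (0.10) and lowest in control 2 (-0.13), control 6 (-0.12) and iKO 2 (-0.11). High and low libraries thus occurred in both groups.

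**Figure D5:**
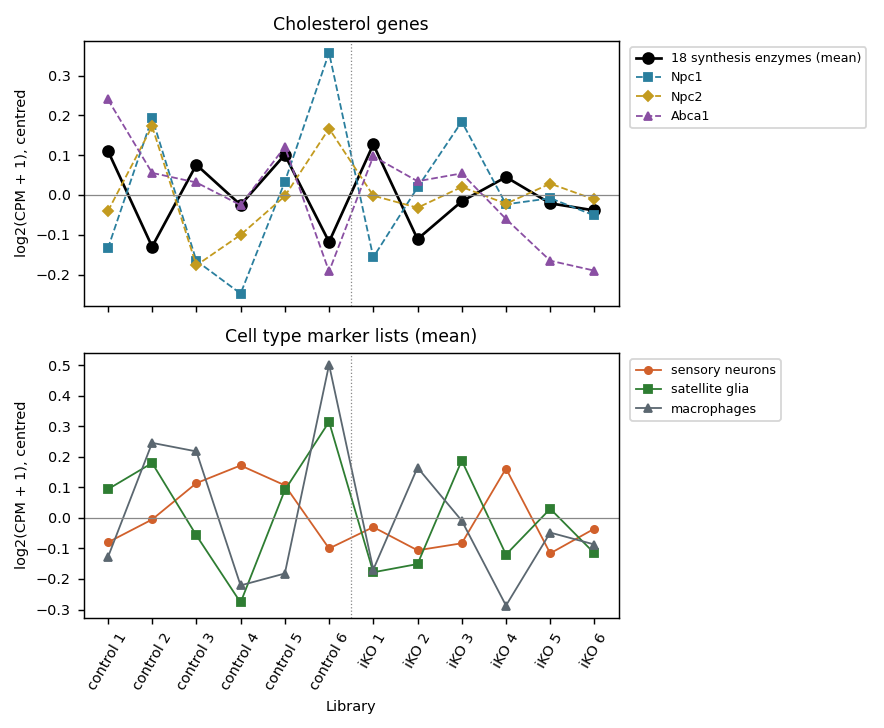
Centred log2(CPM + 1) in each of the 12 libraries, above for the mean of the 18 synthesis enzymes, Npc1, Npc2 and Abca1, below for the means of the marker lists of sensory neurons, satellite glia and macrophages. Controls 2 and 6 stand low for the enzymes and high for Npc1, Npc2, satellite glia and macrophage markers. The library iKO 2 also stands low for the enzymes, with satellite glia markers low and macrophage markers high.

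Marker lists of cell types are given beside these swings as a description. Of the 15482 other genes 52.4% had a mean r with the 18 enzymes above 0, and all but about 1% in either direction lay between -0.54 and 0.54. The mean r of a marker with the 18 enzymes had a median of 0.24 over 10 sensory neuron markers, with 9 above 0. It was -0.29 over 8 satellite glia markers (3 above 0), -0.32 over 6 macrophage markers (0 above 0), -0.27 over 6 oligodendrocyte markers (1 above 0) and -0.05 over 10 myelinating Schwann cell markers (5 above 0). It was -0.21 over 8 skeletal muscle, -0.16 over 6 endothelial and -0.10 over 8 fibroblast and meningeal markers, with 1, 2 and 3 above 0. Single markers of a list differed widely. They ran from -0.62 to 0.58 for satellite glia and from -0.54 to 0.49 for myelinating Schwann cells. The range was -0.25 to 0.36 for sensory neurons and -0.49 to -0.09 for macrophages. In control 6 the mean centred log2 level was 0.32 for satellite glia, 0.50 for macrophage and 1.77 for oligodendrocyte markers, and in control 2 it was 0.18, 0.25 and 1.21. In iKO 2, also low for the enzymes, it was -0.15, 0.165 and -0.77. Among the libraries highest for the enzymes it was -0.18, -0.17 and -1.65 in iKO 1. It was 0.09, -0.13 and 0.42 in control 1, and 0.09, -0.18 and 0.72 in control 5. The neuron list stood at -0.03 in iKO 1, -0.08 in control 1 and 0.11 in control 5. In control 6, control 2 and iKO 2 it stood at -0.10, -0.005 and -0.11. This list was highest in control 4 (0.17), where the mean of the 18 enzymes was -0.025. Over the groups the satellite glia list ran from -0.28 to 0.32 in controls and from -0.18 to 0.19 in iKO libraries, and the neuron list from -0.10 to 0.17 and from -0.12 to 0.16. Oligodendrocyte markers ran from -1.92 to 1.77 and from -1.65 to 0.64. The part of cell makeup in the shared variation of the synthesis genes was not tested.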

How the data were processed

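Per the labels' protocols, RNA of microdissected ganglia was selected for poly(A) and prepared with a non-strand-specific TruSeq kit. Tools named by the submitters' processing notes are STAR 2.7.8a, featureCounts 2.0.1 and bcl2fastq 2.20.0.422, with build GRCm39. Neither the annotation release nor the handling of reads shared between genes is given in those notes. Each library has 1 deposited file of unnormalized read counts per Ensembl gene, as the authors made it.

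Symbols came from a list of gene names matched by Ensembl identifier. Exon lengths, exon overlaps and transcript sequences came from the GENCODE annotation of GRCm38, and promoter windows from RefSeq tables of GRCm38.p6. Words of 50 bases were compared between transcripts. Counts were filtered with filterByExpr, scaled with TMM and tested with edgeR 4.0.16 (R 4.3.3, quasi-likelihood test, Benjamini-Hochberg over 16637 genes, threshold 0.05), with sex as a covariate. Alternatives were DESeq2 1.42.0 and its size factors, limma-voom (limma 3.58.1), other filters and covariates, a replicate block, tamoxifen-injected animals only, and leaving out each library. Correlations used log2(CPM + 1). The code was tested on simulated data.

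All 27 genes are named. Values over libraries are given for the 2 with the smallest p and the 1 with the highest CPM in each role, pairs for the 5 highest and 5 lowest r, and genes most like the enzymes for the first 10. Genes of other lists are named where they passed, up to 2 per list otherwise. The 6 fatty acid genes of replicates 5 and 6 and the pair Insig1 and Stard4 fall outside this rule and were chosen after their values were seen. The members and all lists were chosen with earlier results of these data known.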

Additional observations from a re-analysis of the deposited data

Results flagged for a closer look

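Each of the 27 genes was examined in both groups of 6 libraries for a single library whose gap to its nearest neighbour, divided by the group's range, exceeded Dixon's critical value of 0.625. Of these 54 groups 3 were picked out, and chance picks out about 1 in 20.

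Mvk stood low in iKO 2 at 26.7 CPM, where the other iKO libraries ran from 35.0 to 39.8 CPM. Pmvk stood low in the same library at 55.3 CPM, where the others ran from 64.7 to 67.3 CPM. Fdps stood high in iKO 1 at 13.6 CPM, where the others ran from 9.11 to 10.7 CPM. The library iKO 2 is the shallowest, with 13207526 counts, and iKO 1 is the library in which 18 of the 18 synthesis enzymes lay above their means.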

How the results depend on the processing

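Of the 27 genes 0 passed the threshold in any alternative of the 3 comparisons (20 for iKO against control, 15 for replicates 1 to 4, 13 for replicates 5 and 6), and their largest log2 fold change in any of them was 0.20, 0.26 and 0.44 in size. Over the whole table, 63 genes passed between iKO and control. This became 138 with no filter on low counts, 338 with DESeq2, 34 with the replicate block in place of sex, 28 in tamoxifen-injected animals only, and 23 to 88 when single libraries were left out, below 42 without control 1, 2, 3 or 5 or iKO 1, 5 or 6. For replicates 1 to 4 the 19 became 139 with DESeq2, 12 in the 8 libraries alone, 4 there with the replicate block, and 2 to 18 with a library left out. For replicates 5 and 6 the 1 became 69 with DESeq2 and 1 to 26 with a library left out, the latter without iKO 6. The cause was not tested.

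The median r of the 27 genes was 0.265 without removal of group and sex means and 0.551 in controls only, and that of the 18 enzymes 0.670 in controls only. With a library left out they were 0.307 to 0.404 and 0.465 to 0.589, with the lowest values without control 6 and without iKO 1. The restrictions to 1 group or to replicates 1 to 4 were chosen after seeing the data.

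Fold changes, none past the threshold, changed sign for 13, 17 and 18 genes. The largest of these in the reported fits was 0.08, 0.11 and 0.20 in size on the log2 scale. Leaving out single libraries gave log2 fold changes between iKO and control of -0.066 to 0.043 for Hmgcs1, -0.052 to 0.011 for Sqle, -0.184 to 0.024 for Lss, -0.06 to 0.016 for Nsdhl, -0.03 to 0.114 for Idi1, -0.074 to 0.105 for Fdps and -0.029 to 0.058 for Fdft1. In the same comparison they were -0.016 to 0.097 for Hsd17b7, -0.033 to 0.011 for Ebp, -0.096 to 0.031 for Scap, -0.084 to 0.044 for Npc1, -0.049 to 0.024 for Npc2 and -0.045 to 0.044 for Soat1. In replicates 1 to 4 they were -0.14 to 0.047 for Mvd, -0.183 to 0.183 for Lss, -0.097 to 0.155 for Scap, -0.018 to 0.175 for Npc1, -0.069 to 0.116 for Hmgcs1 and -0.016 to 0.235 for Idi1. The range there was -0.046 to 0.221 for Fdps, -0.014 to 0.092 for Sqle, -0.086 to 0.105 for Msmo1, -0.045 to 0.082 for Nsdhl, -0.075 to 0.119 for Hsd17b7 and -0.076 to 0.077 for Npc2. It also was -0.08 to 0.073 for Soat1, -0.027 to 0.08 for Srebf2, -0.1 to 0.026 for Mvk, -0.013 to 0.065 for Pmvk and -0.032 to 0.108 for Insig2. In replicates 5 and 6, where leaving out a library left an arm with 1 that was assumed to vary like the other groups, they were -0.164 to 0.07 for Acat2, -0.137 to 0.001 for Hmgcs1, -0.255 to 0.174 for Mvk, -0.443 to 0.08 for Mvd, -0.245 to 0.203 for Idi1 and -0.415 to 0.248 for Fdps. For this set it was -0.174 to 0.015 for Fdft1, -0.199 to 0.027 for Sqle, -0.166 to 0.055 for Nsdhl, -0.306 to 0.006 for Abca1, -0.01 to 0.107 for Pmvk and -0.005 to 0.278 for Tm7sf2. Finally it was -0.056 to 0.13 for Insig1, -0.103 to 0.119 for Stard4, -0.168 to 0.007 for Npc2, -0.149 to 0.075 for Soat1, -0.022 to 0.115 for Cyp51 and 0 to 0.129 for Sc5d.

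Between iKO and control, Nsdhl was at 0.003 with no covariate and at 0.005 with the replicate block. In tamoxifen-injected animals only, Hmgcs1 was at 0.004, Npc1 at 0.08 and Npc2 at 0.029. In replicates 1 to 4 the replicate block gave -0.001 for Pmvk, -0.025 for Srebf2, -0.05 for Scap and 0.031 for Npc2. Libraries with the same number did not deviate together (r of -0.40 to 0.35 over 6 numbers), and 0 of 6 controls correlated best with the iKO library of its own number. The depth limits Idi1 most, whose lowest level was 3.77 CPM.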

Other observations

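Among other genes averaging 1 CPM or more, the 10 that followed the 18 synthesis enzymes most closely over the 12 libraries were Cct6b (mean r 0.645), Gpr35 (0.640), Mcam (0.637), Lingo4 (0.634), Gm36371 (0.633), Kcnmb4 (0.629), Fbxw17 (0.627), Adcy2 (0.617), Hdac9 (0.613) and Pou4f2 (0.610). None is a gene of sterol metabolism in the lists used. They are the top of 15482 genes ranked by this measure over 12 libraries, and 1% of those genes exceeded 0.539. Cct6b, Gm36371 and Kcnmb4 averaged 1.25, 1.28 and 2.8 CPM, near the cut of 1 CPM. The others of the 10 ran from 10.2 CPM for Lingo4 to 244 CPM for Mcam. The enzymes' own mean r with each other ran up to 0.620, for Fdps. Among neighbouring pathways, the 13 fatty acid synthesis genes had a median mean r with the enzymes of 0.248, with 11 above 0, and the 14 genes compared of sterol transfer and storage one of 0.106, with 9 above 0. For sterol sensing and SREBP processing it was -0.058 over 9 genes, for other branches of the mevalonate pathway -0.023 over 9, and for liver X receptors and oxysterols -0.022 over 8.

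Of the cell type markers tested between iKO and control 1 passed the threshold in edgeR, Pmp22 of compact myelin, at a log2 fold change of 0.36 ± 0.06 (adjusted p = 0.018), against 0.379% of all genes tested. The 10 myelinating Schwann cell markers had a median of 0.17, with 4 at an unadjusted p under 0.05, all higher, and Mag, which is also an oligodendrocyte marker, at -0.62. The 18 synthesis enzymes had a median of 0.01 and 0 at an unadjusted p under 0.05, against 10.9% of all genes tested. Fibroblast and meningeal markers had a median of -0.51, with 5 of 8 at an unadjusted p under 0.05, all lower, Ptgds at -0.98 and Aldh1a2 at -0.82 among them. Skeletal muscle markers had a median of 1.25, with 4 of 8, all higher, and stood highest in iKO 5 and iKO 6. Oligodendrocyte markers had a median of -1.21, with 6 of 6 below 0 and 0 at an unadjusted p under 0.05. Sensory neuron markers had a median of 0.00, with 3 of 10, all lower. Satellite glia markers had a median of -0.05, with 1 of 8 higher and 1 lower. Macrophage markers had a median of -0.26 and endothelial markers one of -0.02, with 1 of 6 lower in each. None of the markers other than Pmp22 passed after adjustment.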
